A study of Homo sapiens with 6 samples.

Results

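Antisense genes, as studied here, are annotated genes whose name is that of another gene followed by -AS and a number, such as VIM-AS1. The name marks a long noncoding RNA annotated on the strand opposite to the gene before the suffix, called the sense partner below. Genes of the all-gene table with such a name were chosen by their level, averaged across LPS and Control libraries alike, at a minimum of 0.5 FPKM. FPKM is the number of fragments scaled to transcript length and to all mapped fragments. The rule kept 410 genes of 61556 annotated genes, out of 1248 with an antisense name, of which 886 were above 0 in at least 1 library. That level is therefore given as a description, and the comparison of LPS with Control was not part of the rule.

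The LPS group held 3 libraries of EA.hy926 cells labelled as LPS-induced, which received 1000 ng/ml of lipopolysaccharide, a bacterial cell wall component sensed by Toll-like receptors, over 12 h. The Control group held 3 libraries of EA.hy926 cells labelled WT and collected at 12 h. All 6 libraries come from 1 established hybrid line, made by fusing an umbilical vein endothelial cell with A549, a lung carcinoma line, and the titles also call the cells HUVEC. The treatment field reads the same for both groups, so groups were taken from the titles. Nothing in the labels ties the libraries of a group to different cultures, and the replicate spread behind each p-value may be technical.

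Antisense RNAs can start from the same promoter region as their partner and run away from it, lie inside the partner, or meet it tail to tail. Individual antisense RNAs are known to act on chromatin at their own locus, to pair with the partner's transcript, or to bind proteins and small RNAs elsewhere in the cell, while for most no role is established. Their measurement depends on strand: where reads are not assigned to a strand, those of an abundant coding gene can be counted for the antisense gene that overlaps it. The sources used here do not give the strand setting of the counting. Annotated spans overlap in 374 of 401 pairs, and the antisense values of these pairs are uncertain throughout, also where not repeated.

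FPKM carries no read depth, so no counting interval is given. Summed FPKM over all annotated genes ranged from 467380 to 483345 in the LPS libraries and from 427920 to 479748 in the Control libraries. All 12 endothelial markers examined were above the expression minimum, and their summed level was 491 to 627 FPKM in LPS libraries and 399 to 524 FPKM in Control libraries. Of 10 epithelial and A549 markers, 4 keratins passed it, with sums of 91.2 to 114 FPKM in LPS libraries and 125 to 138 FPKM in Control libraries, while EPCAM, CDH1, CLDN4, NKX2-1, SFTPB and SFTPC were below it. All 8 fibroblast and smooth muscle markers passed, with sums of 3439 to 3876 FPKM with LPS and 3512 to 3931 FPKM in Control, and 1 of 6 leukocyte and 0 of 3 erythroid markers did. The fibroblast and smooth muscle sums lie above the endothelial sums in both groups, and the markers were not used to settle the name of the cells. The part of the marker differences between LPS and Control in the results below was not tested. In bulk RNA, fewer cells of a type and less RNA per cell cannot be told apart.

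Most antisense genes were low. Their mean levels ran from 0.50 to 104.8 FPKM with a median of 1.21 FPKM. There were 160 genes under 1 FPKM, 27 at 5 FPKM or more and 12 at 10 FPKM or more. No gene was at 0 in any library, and 290 of the 410 were at 0.5 FPKM or more in all 6. Just inside the minimum lay MCPH1-AS1, PKP4-AS1 and PYCARD-AS1, each at a mean of about 0.50 FPKM, and just outside it PLCE1-AS1 at 0.494, FAM53B-AS1 at 0.490 and UXT-AS1 at 0.478 FPKM. Together the 410 genes summed to 808, 1060 and 996 FPKM in the LPS libraries and to 883, 1022 and 939 FPKM in the Control libraries, and these ranges overlap. That is 0.173% to 0.222% of all FPKM.

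The annotation of the 410 genes was mixed. GENCODE 29 types 334 of them as antisense, 35 as processed transcript, 33 as lincRNA, 3 as bidirectional promoter lncRNA and 5 as transcribed pseudogenes. A partner with the name before the suffix was found in the protein-coding table for 401 genes, giving 401 pairs with 396 distinct partners. The other 9 were FAM198B-AS1, GAS5-AS1, HOXA-AS2, HOXB-AS1, HOXB-AS2, HOXB-AS3, HOXD-AS2, RPARP-AS1 and SSSCA1-AS1. In 369 pairs the partner also passed the expression minimum, and 5 partners were shared by 10 antisense genes.

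By their annotated Ensembl spans on GRCh38, 170 pairs (42.4%) lay head to head, with starts within 1000 bases of each other in 99 of them. In 120 pairs the antisense gene lay inside its partner, in 82 the genes overlapped tail to tail, in 26 the partner lay inside the antisense gene, and 3 were apart. The annotated spans overlapped in 374 of the 401 pairs.

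The FPKM of an antisense gene in these tables was mostly not that of its annotated transcripts. The deposited value of a gene is the sum over Ensembl transcripts and over transcripts assembled from the reads, which carry no Ensembl identifier. In 309 of 410 antisense genes (75.4%) the transcript with the highest FPKM was an assembled one. The same held for 16 of 29 divergent (-DT) genes (55.2%), 48 of 110 intergenic (LINC) genes (43.6%) and 5.81% of 12068 tested protein-coding genes. The median antisense gene owed 8.99% of its summed FPKM to Ensembl transcripts, and 123 of the 410 would reach the minimum on Ensembl transcripts alone. Whether these assembled transcripts run on the antisense strand is not shown in the tables, which hold no strand.

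In 163 pairs the leading assembled transcript covered at least 80% of the partner's span, with a median cover of 98.5%. COL4A2-AS2 shows this make-up. The gene is annotated at chr13:110456396-110463287 on the minus strand, inside COL4A2, which encodes a collagen IV chain of the basement membrane. Its annotated transcript averaged 0.0789 FPKM in LPS libraries and 0.0126 FPKM in Control libraries. The assembled transcript filed under it runs from 110307282 to 110513033, against 110305812 to 110513209 for COL4A2 itself, and held 99.9% of the gene's FPKM. None of the 309 leading assembled transcripts stands in the authors' lncRNA transcript table, whereas the leading transcripts of the other 101 genes do. The map of 6 pairs shows this next to pairs led by an Ensembl transcript.

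**Figure D1:**
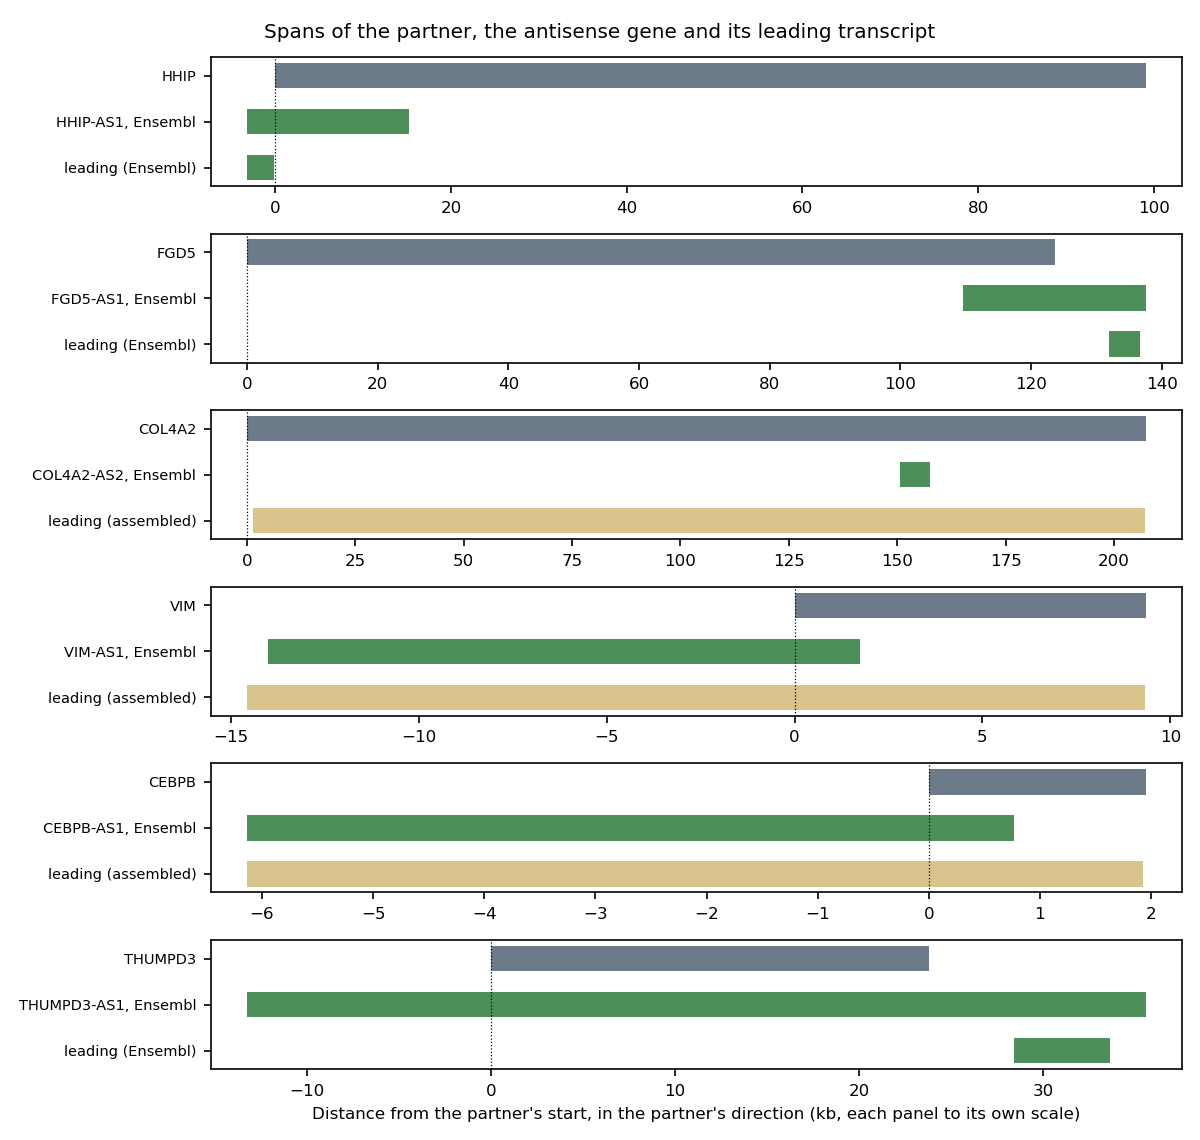
Horizontal bars show, for 6 pairs, the span of the sense partner (grey), the annotated antisense gene (green) and the antisense gene's leading transcript (green if Ensembl, sand if assembled), as distance in kb from the partner's start in the partner's direction. For COL4A2-AS2, VIM-AS1 and CEBPB-AS1 the assembled leading transcript covers 99.2%, 99.6% and 98.8% of the partner, while the leading transcripts of HHIP-AS1, FGD5-AS1 and THUMPD3-AS1 lie outside theirs.

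The 10 most abundant antisense genes split by that make-up. VIM-AS1, head to head with the intermediate filament gene VIM, had 49.0, 138 and 107 FPKM in LPS libraries and 99.9, 130 and 106 FPKM in Control libraries, of which 0.336% came from Ensembl transcripts. LPS library 1 stood lowest, and the groups overlapped. ENO1-AS1 (22.7 FPKM), LAMC1-AS1 (15.8 FPKM) and CD81-AS1 (11.8 FPKM) likewise had under 1% from Ensembl transcripts, beside abundant partners that encode a glycolytic enzyme, a laminin chain and a tetraspanin. FGD5-AS1, a broadly expressed lncRNA, was led by Ensembl transcripts (97.8%) and had 18.8, 25.7 and 27.6 FPKM in LPS libraries and 21.1, 24.9 and 23.1 FPKM in Control libraries. AGAP2-AS1, wholly Ensembl, had 13.2, 11.1 and 14.3 FPKM with LPS and 11.1, 10.7 and 10.5 FPKM in Control. The groups of both overlapped. Of the 10, COL4A2-AS2 alone reached an unadjusted p under 0.05, and it and CD81-AS1 (12.0, 13.9 and 12.4 FPKM with LPS, 11.5, 10.7 and 10.3 FPKM in Control) had groups that did not overlap. Over all tested genes 9.21% were at that p and 15.9% had groups without overlap, so neither count sets the abundant genes apart.

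**Figure D2:**
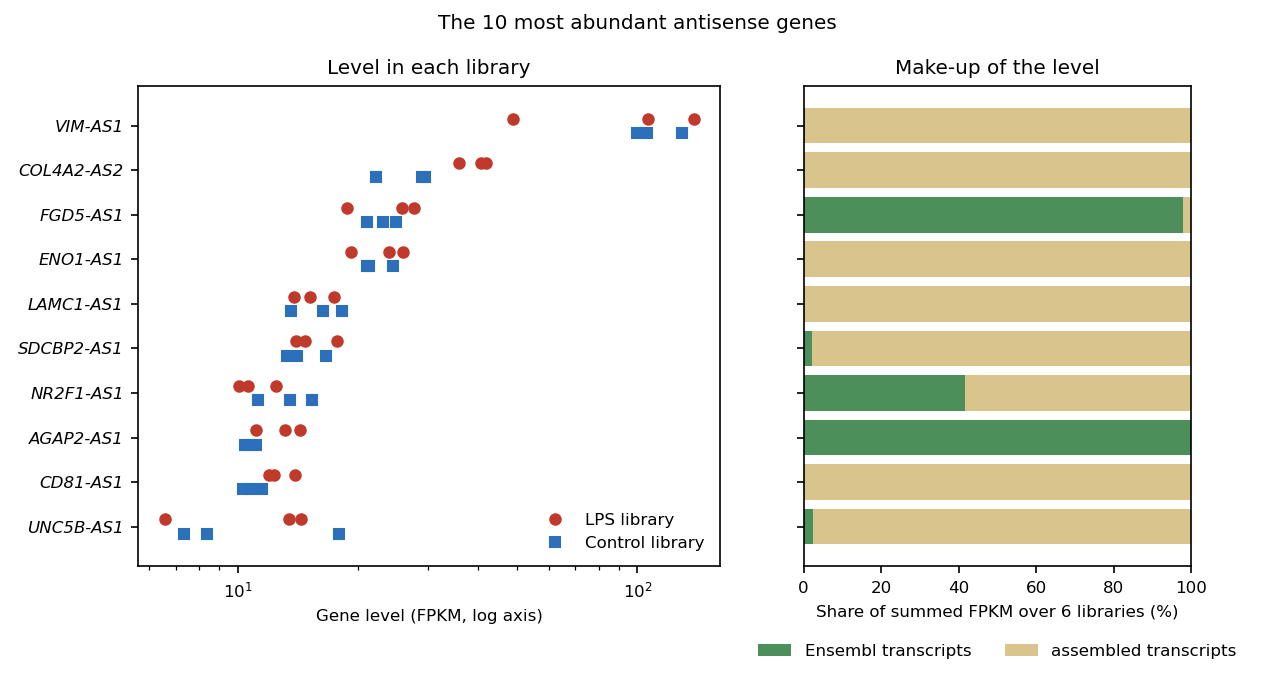
Left, the level of the 10 most abundant antisense genes in each library (FPKM, log axis), LPS libraries as circles above and Control libraries as squares below. Right, the share of their summed FPKM from Ensembl (green) and assembled (sand) transcripts, with FGD5-AS1 at 97.8% and AGAP2-AS1 at 100% Ensembl and VIM-AS1 at 0.336%.

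Levels of antisense genes were set beside those of their partners, both per length. Over the 369 pairs with a tested partner, the antisense gene had a median of 10.9% of the partner's FPKM, and it exceeded the partner in 18 pairs. The 32 pairs with a partner under the minimum are left out of both values. In those the antisense mean lay above the partner's by the rule itself, so the values hold for tested partners only. The share was 19.9% where an Ensembl transcript led, 13.5% where another assembled transcript led and 8.25% where the leading transcript spanned the partner. Across pairs, Spearman's rho between the mean levels was 0.02 in the first class, 0.28 in the second and 0.67 in the third. These are descriptions across genes of the same libraries, not replicates. FGD5-AS1 (470% of FGD5), OIP5-AS1 (487% of OIP5) and AGAP2-AS1 (2133% of AGAP2) were among those above their partner. OIP5-AS1, also known as Cyrano, is a conserved lncRNA, and it averaged 4.02 ± 1.44 FPKM with LPS and 3.54 ± 1.03 FPKM in Control (SD, n = 3 each).

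The comparison of LPS with Control asks which antisense genes differ between the LPS and Control libraries of these cells. No antisense gene passed the threshold, an adjusted p under 0.05 by limma with Benjamini-Hochberg adjustment over all 15944 tested genes, where 8 genes (0.0502%) passed. The lowest adjusted p among the 410 was 0.283, for ZFPM2-AS1. At an unadjusted p under 0.05 there were 31 antisense genes (7.56%), 12 higher and 19 lower with LPS, where the share over all tested genes was 9.21% (4.57% higher and 4.63% lower). Groups did not overlap for 54 antisense genes (13.2%), 26 higher and 28 lower, against 15.9% of all genes (8.13% higher and 7.76% lower). Neither share exceeds its background. Without Control library 3 the 31 became 17 (4.15%), beside 6.70% of all genes.

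Changes were small and centred near 0. Log2 changes, taken on log2(FPKM + 0.5), which understates the changes of low genes, ran from -1.20 to 0.87. Their median was 0.01, beside -0.01 over all tested genes, with 209 positive and 201 negative. Changes beyond 0.5 in either direction made up 6.59% of antisense genes and 7.66% of all tested genes. CEBPB-AS1 alone was both at an unadjusted p under 0.05 and at a change of 2-fold or more, as were 0.935% of all genes.

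**Figure D3:**
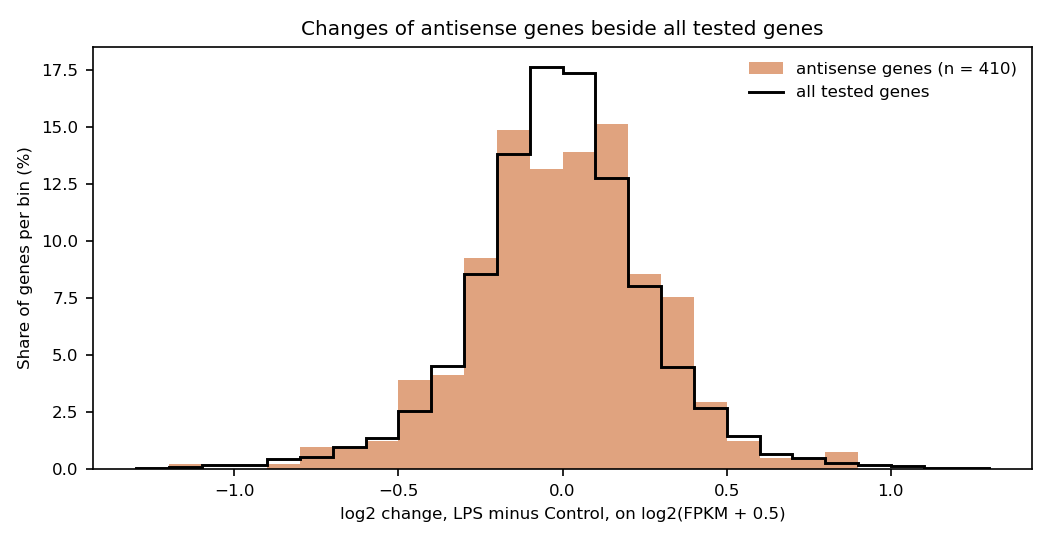
Share of genes (%) per bin of log2 change, LPS minus Control, for the 410 antisense genes (filled) and for all 15944 tested genes (line). Both centre near 0, with medians of 0.01 and -0.01, and 0.571% of all genes lie beyond the axis.

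The balance of signs differed with the make-up of the level. The sets below hold different genes, so the part of the transcripts summed was not tested. In the 101 genes led by an Ensembl transcript the median log2 change was -0.11, with 39 positive and 62 negative. It was 0.01 in the 146 led by another assembled transcript and 0.07 in the 163 whose leading transcript spans the partner, with 95 positive and 68 negative. Summing only Ensembl transcripts, a choice made after seeing the data, left 123 antisense genes with a median of -0.11, 42 positive and 81 negative, beside -0.02 over all 13336 genes so summed. None of these subsets held a gene past the threshold by limma, and at an unadjusted p under 0.05 they held 10 (9.90%), 14 (9.59%), 7 (4.29%) and 13 (10.6%) genes. The shares over all genes were 9.21% as deposited and 9.74% on Ensembl transcripts only.

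Of the 31 genes at an unadjusted p under 0.05, 9 with the largest positive and 10 with the largest negative changes among those with separate groups are described next, by the role of the partner. In 28 of the 31 the groups did not overlap, 11 higher and 17 lower with LPS. With 3 libraries per group a small p mostly goes with separate groups, so this count adds no support. The like share among all genes at that p was not taken. Of the 31, 5 genes, SEC24B-AS1, TRHDE-AS1, DNAJC27-AS1, PKN2-AS1 and RPARP-AS1, had a mean under 0.5 FPKM in 1 group and were kept by the rule through the other. Adjusted p-values for the 19 genes named below lay between 0.283 and 0.529.

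The main transcript of HHIP-AS1 starts near HHIP, which encodes a membrane protein that binds and restrains hedgehog ligands. HHIP-AS1 had 11.1, 12.2 and 10.9 FPKM in LPS libraries and 8.54, 5.50 and 5.72 FPKM in Control libraries. All LPS libraries stood above all Control libraries, with a log2 change of 0.77 (SE 0.17, limma adjusted p = 0.304). HHIP had 56.9, 50.5 and 70.4 FPKM with LPS and 36.8, 23.4 and 28.6 FPKM in Control, a log2 change of 1.0 (SE 0.19, limma adjusted p = 0.173), the lowest adjusted p of any partner. The groups of HHIP did not overlap either. HHIP-AS1 lay at 20.2% of HHIP's level. That transcript, HHIP-AS1-202, starts 169 bases from the start of HHIP on the opposite strand and does not overlap it, and had 7.54, 8.22 and 7.14 FPKM with LPS and 6.38, 3.73 and 4.34 FPKM in Control. An assembled transcript also filed under HHIP-AS1 runs from 144646150 to 144739572 on chromosome 4, over HHIP itself (144646156 to 144745271), and had 2.98, 3.19 and 3.23 FPKM with LPS and 1.5, 1.31 and 1.24 FPKM in Control. On Ensembl transcripts alone HHIP-AS1 had a log2 change of 0.64, again without overlap of the groups.

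The promoter windows of this pair are shown because HHIP-AS1 has the largest positive log2 change among antisense genes led by an Ensembl transcript and HHIP the largest among partners, and those of SCAMP1-AS1 and SCAMP1 because their start regions also overlap and both log2 changes are negative. FRMD6-AS1 is shown as a higher gene whose start lies inside its partner, away from the partner's start. Each window is RefSeq sequence on GRCh38.p14, from 250 bases before to 50 after the gene's RefSeq start, 5′ to 3′ on the gene's own strand, and capitals mark GC boxes (GGGCGG on either strand, overlapping matches included). HHIP-AS1 is chr4:144645970-144646269 on the minus strand, HHIP chr4:144645906-144646205 on the plus strand, SCAMP1-AS1 chr5:78360492-78360791 on the minus strand, SCAMP1 chr5:78360367-78360666 on the plus strand and FRMD6-AS1 chr14:51651695-51651994 on the minus strand.
HHIP-AS1: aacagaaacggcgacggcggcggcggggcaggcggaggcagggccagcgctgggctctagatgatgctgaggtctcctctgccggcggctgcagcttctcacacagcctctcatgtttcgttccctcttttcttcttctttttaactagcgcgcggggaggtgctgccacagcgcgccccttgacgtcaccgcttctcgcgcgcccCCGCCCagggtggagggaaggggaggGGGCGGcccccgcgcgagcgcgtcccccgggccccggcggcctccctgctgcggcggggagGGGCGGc
HHIP: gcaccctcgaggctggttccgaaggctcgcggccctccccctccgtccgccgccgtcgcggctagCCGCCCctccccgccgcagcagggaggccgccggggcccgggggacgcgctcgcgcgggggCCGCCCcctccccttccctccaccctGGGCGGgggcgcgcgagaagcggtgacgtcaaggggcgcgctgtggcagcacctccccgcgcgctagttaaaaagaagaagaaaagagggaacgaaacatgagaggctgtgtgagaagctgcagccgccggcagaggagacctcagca
SCAMP1-AS1: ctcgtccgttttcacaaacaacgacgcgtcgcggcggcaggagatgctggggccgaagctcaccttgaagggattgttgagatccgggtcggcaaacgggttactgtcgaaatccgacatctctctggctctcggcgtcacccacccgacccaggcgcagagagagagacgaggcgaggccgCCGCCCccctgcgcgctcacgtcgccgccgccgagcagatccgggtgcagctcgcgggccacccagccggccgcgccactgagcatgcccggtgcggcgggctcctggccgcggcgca
SCAMP1: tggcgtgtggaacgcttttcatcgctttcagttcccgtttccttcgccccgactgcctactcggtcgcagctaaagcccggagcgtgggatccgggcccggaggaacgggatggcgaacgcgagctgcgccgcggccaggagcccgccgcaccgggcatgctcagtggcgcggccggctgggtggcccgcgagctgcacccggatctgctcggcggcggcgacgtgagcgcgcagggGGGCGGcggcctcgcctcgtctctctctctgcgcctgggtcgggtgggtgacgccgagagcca
FRMD6-AS1: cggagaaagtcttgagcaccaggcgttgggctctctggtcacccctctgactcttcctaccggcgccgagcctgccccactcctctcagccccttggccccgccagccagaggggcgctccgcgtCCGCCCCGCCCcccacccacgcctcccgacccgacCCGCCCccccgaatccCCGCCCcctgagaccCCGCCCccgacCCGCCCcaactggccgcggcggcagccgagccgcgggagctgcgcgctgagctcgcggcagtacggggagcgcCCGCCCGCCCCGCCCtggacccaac

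The RefSeq start used for HHIP-AS1 lies 15338 bases from the start of the Ensembl gene in the annotation, against 34 bases for SCAMP1-AS1 and 0 for FRMD6-AS1. The windows of HHIP-AS1 and HHIP overlap by 236 bases, so they hold largely the same DNA read from opposite strands, and each has 3 GC boxes. Those of SCAMP1-AS1 and SCAMP1 overlap by 175 bases with 1 GC box each, and FRMD6-AS1 has 9. RefSeq windows were matched for 290 of the 410 antisense genes and 335 partners. In the 261 pairs with both windows, 40 pairs (15.3%) had windows that overlap. A GC box occurred in 47.6% of antisense windows, 68.1% of partner windows and 44.6% of all 27305 windows. The CCAAT box (CCAAT) occurred in 30.3%, 34.3% and 35.7%, the TATA box (TATAAA) in 10.0%, 6.87% and 12.0%, and the AP-1 site (TGANTCA) in 8.28%, 6.27% and 7.76%. The NF-kB consensus occurred in 8.62%, 5.37% and 5.72%. Each motif was searched on both strands, and a match is a match of letters. Median GC content was 61.0% in antisense windows, 66.3% in partner windows and 58.3% in all windows.

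Among the other genes higher with LPS, 2 stand beside genes of secreted signals and matrix. INHBA-AS1, beside the gene for the activin A subunit, had 1.83, 2.29 and 4.55 FPKM with LPS and 1.51, 1.26 and 1.02 FPKM in Control (log2 change 0.87, SE 0.29). Its leading transcript was an assembled one, with 1.83, 2.29 and 2.60 FPKM with LPS and 1.51, 1.23 and 1.02 FPKM in Control. Another assembled transcript had 1.95 FPKM in LPS library 3 and was listed at 0 in every other library. The gene stood highest in LPS library 3, and INHBA itself was highest in that library too. INHBA had 28.5, 19.9 and 46.4 FPKM with LPS and 28.3, 12.0 and 10.2 FPKM in Control, where the groups overlapped. COL4A2-AS2 had 35.8, 40.7 and 41.9 FPKM with LPS and 29.4, 28.9 and 22.2 FPKM in Control (log2 change 0.56, SE 0.13). COL4A2 had 324, 314 and 368 FPKM with LPS and 269, 257 and 220 FPKM in Control (log2 change 0.43, SE 0.11), so that gene and partner, whose spans coincide in the assembled transcript, were both higher without overlap.

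Other genes higher with LPS stand beside genes of protein turnover, transport and RNA. RNF185-AS1 consists of 1 Ensembl transcript inside RNF185, the gene of a ubiquitin ligase of the endoplasmic reticulum, and had 1.06, 1.41 and 1.09 FPKM with LPS and 0.660, 0.390 and 0.645 FPKM in Control (log2 change 0.67, SE 0.19). FRMD6-AS1, also a single Ensembl transcript, inside the gene of a FERM domain protein, had 1.25, 1.55 and 1.5 FPKM with LPS and 1.01, 0.818 and 0.927 FPKM in Control (log2 change 0.45, SE 0.16). Their partners were not separated between groups. SLC16A1-AS1 had 2.53, 2.98 and 3.61 FPKM with LPS and 2.12, 1.84 and 2.26 FPKM in Control (log2 change 0.45, SE 0.16). Its partner SLC16A1, which encodes the monocarboxylate transporter that carries lactate, had 27.3, 29.1 and 25.5 FPKM with LPS and 31.2, 32.4 and 32.4 FPKM in Control (log2 change -0.23, SE 0.09). Antisense gene and partner thus had opposite signs, each without overlap of the groups. RAI1-AS1, SEC24B-AS1 and RALY-AS1, beside genes of a nuclear regulator, a coat protein of transport vesicles and an RNA-binding protein, each had a log2 change of 0.43.

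Genes lower with LPS were led by CEBPB-AS1, beside CEBPB, which encodes a transcription factor of inflammatory and metabolic genes. CEBPB-AS1 had 1.53, 3.45 and 5.97 FPKM with LPS and 6.76, 11.1 and 6.90 FPKM in Control (log2 change -1.20, SE 0.41, adjusted p = 0.447). The difference lies in an assembled transcript over CEBPB, with 0.0881, 0.839 and 5.96 FPKM with LPS and 6.68, 10.96 and 6.81 FPKM in Control. The annotated transcript CEBPB-AS1-201 had 1.34, 2.61 and 0.0179 FPKM with LPS and 0.0324, 0.0384 and 0.0913 FPKM in Control, so on Ensembl transcripts alone the log2 change was 1.38, opposite in sign. The direction for CEBPB-AS1 therefore depends on which transcripts are summed. CEBPB itself had 59.7, 77.7 and 71.0 FPKM with LPS and 77.2, 87.9 and 77.7 FPKM in Control, overlapping groups.

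THUMPD3-AS1, which surrounds the gene of a transfer RNA methyltransferase, had 2.13, 0.760 and 2.73 FPKM with LPS and 3.43, 3.17 and 3.45 FPKM in Control (log2 change -0.81, SE 0.33). THUMPD3 had 3.46, 4.57 and 4.21 FPKM with LPS and 6.39, 5.97 and 6.67 FPKM in Control (log2 change -0.59, SE 0.14), again without overlap. ZFPM2-AS1, beside the gene of a GATA cofactor, had 1.45, 1.41 and 1.95 FPKM with LPS and 3.08, 2.85 and 2.85 FPKM in Control (log2 change -0.71, SE 0.16, adjusted p = 0.283). It had the smallest p of all 410. TRHDE-AS1, inside the gene of an ectoenzyme that degrades thyrotropin-releasing hormone, had 0.325, 0.194 and 0.260 FPKM with LPS and 0.772, 0.626 and 0.894 FPKM in Control (log2 change -0.73, SE 0.18).

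Several of the lower genes start close to their partner and are led by an Ensembl transcript. SCAMP1-AS1, whose start lies 104 bases from that of the secretory carrier membrane protein gene, had 0.927, 0.529 and 0.886 FPKM with LPS and 1.02, 1.99 and 1.85 FPKM in Control (log2 change -0.71, SE 0.25). SCAMP1 had a log2 change of -0.12 with overlapping groups. OSMR-AS1, which starts 29 bases from the oncostatin M receptor gene, had 0.505, 0.451 and 0.714 FPKM with LPS and 0.894, 1.25 and 1.25 FPKM in Control (log2 change -0.63, SE 0.19). OSMR had 25.7, 21.8 and 26.6 FPKM with LPS and 29.2, 30.3 and 31.9 FPKM in Control (log2 change -0.30, SE 0.11). Both members of that pair stood lower in all LPS libraries than in all Control libraries. DNAJC27-AS1 had 0.300, 0.406 and 0.267 FPKM with LPS and 0.673, 0.562 and 1.08 FPKM in Control (log2 change -0.61, SE 0.21), beside a partner under the minimum. TBX5-AS1, beside a T-box factor gene of heart and limb development, had 0.742, 0.495 and 0.785 FPKM with LPS and 0.976, 1.22 and 1.62 FPKM in Control (log2 change -0.59, SE 0.20).

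C1RL-AS1 and OSTN-AS1 completed the 10 lower genes. C1RL-AS1, beside the gene of a protease related to complement C1r, had 0.302, 0.582 and 0.759 FPKM with LPS and 0.987, 1.42 and 0.990 FPKM in Control (log2 change -0.65, SE 0.22), and C1RL had a log2 change of -0.48 (SE 0.14) without overlap. OSTN-AS1 had 0.523, 0.439 and 0.680 FPKM with LPS and 1.18, 1.21 and 1.0 FPKM in Control (log2 change -0.64, SE 0.17), while OSTN, the gene of the peptide osteocrin, was under the minimum.

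**Figure D4:**
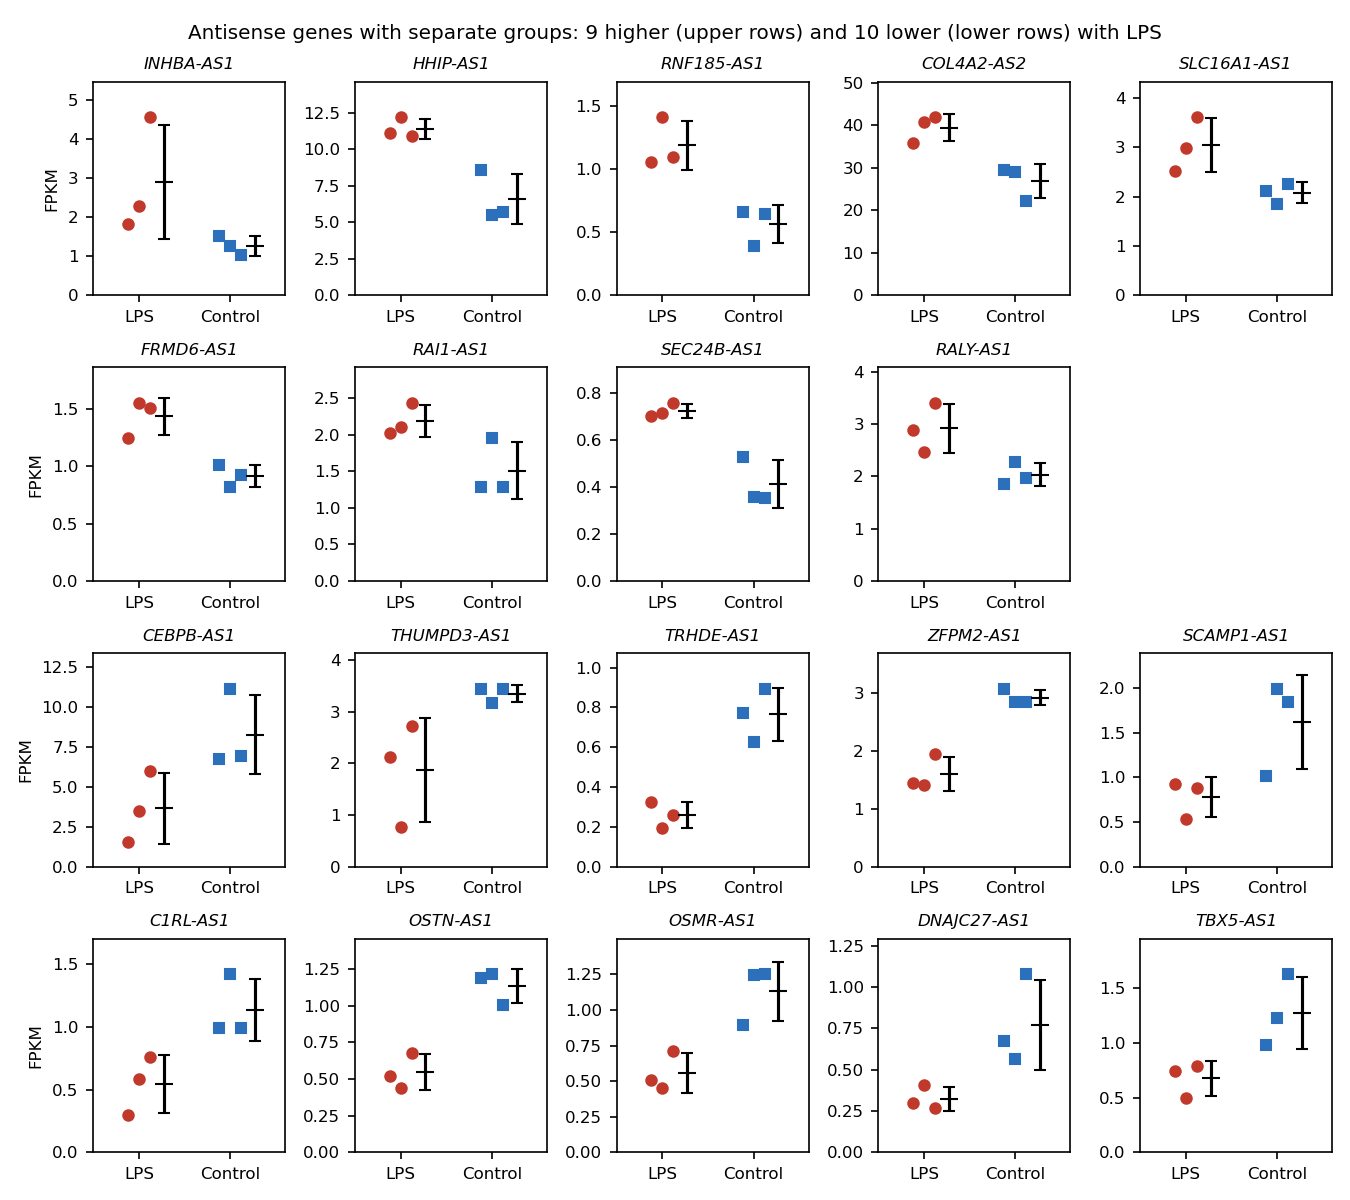
FPKM in each library for 9 antisense genes with the largest positive log2 changes (upper 2 rows) and 10 with the largest negative ones (lower 2 rows), LPS at left as circles and Control at right as squares, with mean and SD (n = 3 each) as black bars. The genes were chosen for an unadjusted p under 0.05 and groups that do not overlap, so the separation is how they were picked.

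Sense partners were tested in the protein-coding table, where 7 of 12068 genes passed (0.058%). Of 365 tested partners 0 passed by limma, with the lowest adjusted p at 0.173. At an unadjusted p under 0.05 there were 35 partners (9.59%), 17 higher and 18 lower, where the share over all coding genes was 10.4% (5.13% higher and 5.26% lower). Groups did not overlap for 74 partners (20.3%), against 17.4% of coding genes. Their median log2 change was 0.00. No gene with an antisense name was found for any of the 7 coding genes past the threshold.

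Signs of change within a pair were the same in 236 of 369 pairs (64.0%). Most pairs overlap and the strand of counting is not known, so the comparisons within pairs given here are uncertain. Across pairs the changes of antisense gene and partner had a Pearson r of 0.45 and a Spearman rho of 0.42, as a description over genes measured in the same libraries. By make-up, r was 0.45 where an Ensembl transcript led, 0.48 where another assembled transcript led and 0.43 where the leading transcript spanned the partner. By position, r was 0.60 for antisense genes inside their partner, 0.52 for partners inside the antisense gene, 0.45 head to head and 0.23 tail to tail. Signs were the same in 76 of 115, 7 of 16, 109 of 162 and 42 of 74 tested pairs of these classes, so for partners inside the antisense gene the r and the sign count differ. Of the 28 genes at an unadjusted p under 0.05 with a tested partner, 25 had the sign of the partner. Both members of the pair were at an unadjusted p under 0.05 in 8 pairs, ARRDC3-AS1, C1RL-AS1, COL4A2-AS2, HHIP-AS1, OSMR-AS1, SLC16A1-AS1, THUMPD3-AS1 and WNT5A-AS1, and all of these but SLC16A1-AS1 had the sign of the partner. No like count was made for other pairs of genes, so these counts are descriptions.

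**Figure D5:**
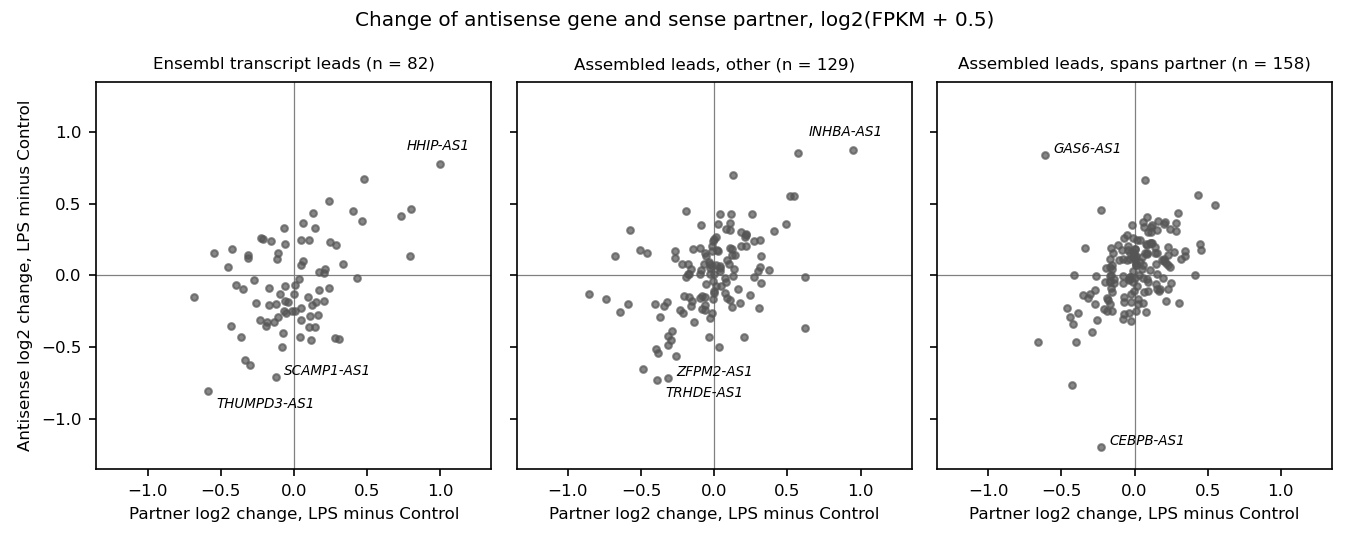
Log2 change (LPS minus Control, on log2(FPKM + 0.5)) of the antisense gene on the vertical axis and of its sense partner on the horizontal axis, 1 point per pair, in 3 panels by the make-up of the antisense level, with labels on named genes beyond 0.7 in either direction. Points run from lower left to upper right in each panel, with Pearson r of 0.45, 0.48 and 0.43, and CEBPB-AS1 and GAS6-AS1 stand apart in the third.

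The 5 pairs with the largest difference in log2 change were led by GAS6-AS1, CEBPB-AS1 and ADNP-AS1. GAS6-AS1, beside the gene of the ligand of the TAM receptors, had 2.34, 0.0973 and 3.33 FPKM with LPS and 0.111, 2.59 and 0.104 FPKM in Control (log2 change 0.84, SE 0.85). Its level switched between near 0 and over 2 FPKM within both groups, as did an assembled transcript over GAS6 that was listed at 0 in 3 of the 6 libraries. GAS6 had 69.6, 79.0 and 47.7 FPKM with LPS and 93.2, 103 and 99.2 FPKM in Control (log2 change -0.61, SE 0.18), without overlap. ADNP-AS1 had 0.846, 0.728 and 0.777 FPKM with LPS and 0.853, 1.80 and 0.961 FPKM in Control. ADNP, a homeobox gene of neural development, had 9.96, 4.03 and 3.93 FPKM with LPS and 3.15, 3.49 and 3.45 FPKM in Control, with LPS library 1 far above the rest. KIF9-AS1 and RFX3-AS1 had log2 changes of 0.14 and 0.31 beside -0.68 for KIF9 and -0.57 for RFX3, and the antisense groups overlapped in both.

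Antisense genes beside genes of the LPS response were taken from lists. The lists used here and below were chosen with earlier results of these data known, so their shares are descriptions. Of 45 interferon and antiviral genes on a list, 3 have an antisense gene by name and 1, HLA-F-AS1, was a member. It had 0.753, 1.16 and 1.52 FPKM with LPS and 0.539, 1.18 and 1.31 FPKM in Control, overlapping groups. HLA-F, an antigen-presentation gene that interferon induces, had 9.12, 8.84 and 8.76 FPKM with LPS and 3.96, 6.35 and 4.73 FPKM in Control (log2 change 0.79, SE 0.17, limma adjusted p = 0.208), without overlap. Of the 42 tested coding genes of that list, 2 passed the threshold, both higher, beside 0.058% of all coding genes. At an unadjusted p under 0.05 stood 19 (45.2%), all higher, where the share over all coding genes was 10.4%. No antisense gene of the cytokine and chemokine list was a member, and of the NF-kB and TLR list MAP3K14-AS1 and MAPKAPK5-AS1 were, at log2 changes of -0.20 and 0.26 with overlapping groups. On the cytokine list 1 of 22 tested coding genes passed, higher with LPS, and on the NF-kB list 0 of 37, with 9 and 10 at an unadjusted p under 0.05.

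Of 18 antisense genes by name on the endothelial and vascular list 11 were members, and 0 were at an unadjusted p under 0.05, beside 9.21% of all tested genes, with log2 changes from -0.77 to 0.84 and a median of -0.15. Of the 61 tested coding genes of that list 21 (34.4%) were, 16 higher and 5 lower, and 0 passed the threshold by limma. The share at an unadjusted p under 0.05 over all coding genes was 10.4%. LOXL1-AS1, beside a gene of elastic fibre crosslinking, had 5.12, 4.88 and 1.87 FPKM with LPS and 6.60, 4.37 and 9.67 FPKM in Control. HIF1A-AS2, beside the gene of a hypoxia factor, averaged 6.90 ± 1.12 FPKM with LPS and 8.17 ± 2.39 FPKM in Control (SD, n = 3 each). GATA2-AS1 and GATA6-AS1, beside endothelial GATA factors, and NR2F2-AS1, beside a venous identity factor, had log2 changes of 0.19, 0.13 and -0.33, all with overlapping groups. On Ensembl transcripts alone the values of GATA2-AS1 and GATA6-AS1 were -0.10 and -0.25. Of 8 members beside transcription factors of mesenchyme and development, RORA-AS1 was at an unadjusted p under 0.05 (0.888, 0.660 and 0.607 FPKM with LPS, 0.901, 1.27 and 1.47 FPKM in Control, log2 change -0.48, SE 0.19).

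Of 36 antisense RNAs listed as characterised, 22 were members. Their log2 changes ran from -0.81 to 0.84 with a median of -0.15, 8 positive and 14 negative, and 2 (9.09%) were at an unadjusted p under 0.05, both lower, a share near the 9.21% of all tested genes. These were THUMPD3-AS1, given above, and PAXIP1-AS1, with 0.921, 1.0 and 1.10 FPKM with LPS and 1.27, 1.65 and 2.04 FPKM in Control. CDKN2B-AS1, the antisense RNA of the cyclin-dependent kinase inhibitor locus also called ANRIL, averaged 2.54 ± 1.61 FPKM with LPS and 1.68 ± 0.513 FPKM in Control (SD, n = 3 each). Of it, 1 assembled transcript had 3.72 FPKM in LPS library 3 and was listed at 0 in the other 5 libraries.

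At the level of transcripts, 386 transcripts of the 410 genes passed the minimum, 97 Ensembl and 289 assembled. By limma 0 passed the threshold (lowest adjusted p 0.267), where 35 of 35727 transcripts (0.098%) did. At an unadjusted p under 0.05 there were 23 (5.96%), 12 higher and 11 lower, beside 5.77% of all transcripts (2.85% higher and 2.92% lower). The following transcripts were picked after their values were seen. An assembled transcript of RAB11B-AS1 was listed at 0 in all LPS libraries and had 2.04, 0.641 and 1.67 FPKM in Control. Another assembled transcript of that gene, listed over the same span, had 1.59, 1.76 and 2.60 FPKM with LPS and 1.05, 1.51 and 1.34 FPKM in Control. The division of reads between these transcripts was not tested. The annotated RAB11B-AS1-201 had 1.16, 1.71 and 2.25 FPKM with LPS and 0.865, 3.9e-05 and 1.02 FPKM in Control. The annotated EPB41L4A-AS1-205 had 1.47, 1.03 and 1.31 FPKM with LPS and 1.79, 2.33 and 2.16 FPKM in Control, and its gene had a log2 change of -0.44.

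The antisense genes were set beside the most alike classes of noncoding genes. Of 29 tested divergent genes 3 (10.3%) and of 110 intergenic genes 14 (12.7%) were at an unadjusted p under 0.05, beside 7.56% of the antisense genes and 9.21% of all tested genes, and 0 of either passed the threshold by limma. Groups did not overlap for 6.90% of divergent and 18.2% of intergenic genes, beside 13.2% of antisense genes. Their median log2 changes were -0.12 and -0.06, beside 0.01 for the antisense genes. These differences between classes were not tested.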

How the data were processed

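All 5 deposited tables hold FPKM values calculated by the authors. Used were the tables of all annotated genes, all annotated transcripts, protein-coding genes and lncRNA transcripts. The submitters' processing notes name HISAT2, StringTie and the mouse build mm9, with no version of either tool, although gene identifiers are human Ensembl ones and positions fit GRCh38. Read counts and counting strand are not stated there. Strand and gene type were read from GENCODE 29.

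The test was limma 3.58.1 (R 4.3.3) applied to log2(FPKM + 0.5) of features whose mean reached 0.5 FPKM, with group alone in the model, eBayes with a mean-variance trend, two-sided p-values and Benjamini-Hochberg adjustment within each whole table. Simulated data served as a check of the code only. The power to detect changes as small as those of the antisense genes was not estimated. Partners were matched by the symbol before -AS.

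Members and lists were chosen with earlier results of these data known. The text names the 10 most abundant members, up to 10 with the largest positive and 10 with the largest negative log2 changes at an unadjusted p under 0.05 without overlap, members on a list, those nearest the minimum, and the 5 pairs with the largest difference. A gene that this rule names is not reported here. Other genes named were chosen after their values were seen. Alternatives were pseudocounts of 0.1 and 1, no filter, a minimum of 1 FPKM, median-of-ratios and quantile scaling, a replicate block, library weights, robust eBayes, each library left out, a 2-fold rule, and Ensembl transcripts only.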

Additional observations from a re-analysis of the deposited data

How the results depend on the processing

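No antisense gene, partner or transcript of an antisense gene passed the adjusted threshold under any alternative in which it was tested, and the lowest adjusted p of an antisense gene over all of them was 0.132, for HHIP-AS1 without Control replicate 1. Counts of antisense genes at an unadjusted p under 0.05 ran from 17 to 36 on the deposited gene values with a minimum of 0.5 or 1 FPKM, with the lowest count without Control replicate 3 and at the 1 FPKM minimum, and stood at 41 of 886 with no filter. Requiring an unadjusted p under 0.05 and a 2-fold change gave 1 antisense gene. Over all annotated genes the 8 calls became 5 with a pseudocount of 1, 0 with no filter (2196 at an unadjusted p under 0.05), 5 after quantile normalization, and 1 to 6 when a library was left out. The 7 protein-coding calls became 0 with no filter and 0 to 8 when a library was left out. With the replicate block, 0 of all annotated genes and 0 protein-coding genes were called (1736 and 1451 at an unadjusted p under 0.05), and 30 antisense genes were at an unadjusted p under 0.05. Same-numbered LPS and Control libraries deviated together with correlations of 0.026, 0.121 and 0.093, beside -0.109 to 0.010 for libraries of different number. The labels state no pairing, so the main model did not use the numbers, and a pairing by number was not excluded. With a minimum of 1 FPKM, 138 pairs had the same sign, from fewer pairs tested. Summing only Ensembl transcripts, chosen after seeing the data, left 123 antisense genes tested, with a median log2 change of -0.11. Both the genes and the transcripts differ from the main setting there, and the part of each in that value was not tested. For CEBPB-AS1 the sign turned, to a log2 change of 1.38. FPKM carries no depth, so precision at low levels is known only from the 3 libraries of each group.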
